A study of Mus musculus with 22 samples.

Results

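The regions described here carry a peak of lactylated histone H3 lysine 18 (H3K18la) in every H3K18la library of the mouse embryonic telencephalon and no peak of acetylated or crotonylated histone H3 lysine 9 (H3K9ac, H3K9cr) in any library. Peaks of 12 lists were merged on chromosomes 1 to 19 and X wherever they overlapped by 1 bp or more. Of the 112550 merged regions, 4043 (3.59%) had a peak from all 4 H3K18la lists and none from the 8 H3K9ac and H3K9cr lists. They were selected on the measured peaks themselves, so the presence of H3K18la and the lack of H3K9 peaks are not results. They are called H3K18la-alone regions below, which says that no H3K9 peak was listed and not that no H3K9 acylation was present.

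The series compared the telencephalon of ICR mouse embryos, an outbred strain, at embryonic day 16.5 (E16.5) and embryonic day 13.5 (E13.5). Each mark had 2 native ChIP-seq libraries per stage (chromatin precipitated without crosslinking), RNA-seq had 2 libraries per stage, and ATAC-seq had 2 libraries at E13.5. The libraries are stated to be biological replicates, and the sources used here do not give the number of embryos behind each. The embryos carried no treatment or engineered allele according to the labels.

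Lactylation attaches a lactyl group, derived from lactate, to lysine and links histone modification to glycolysis. Acetylation and crotonylation of H3 lysine 9 are known mainly from the promoters of active genes, and H3K18la has been described at active promoters and at enhancers. Between the stages compared, the telencephalon moves from dividing progenitors and early neurons toward later neurons and the first glial cells. Enhancers, the distal elements that raise transcription of a gene, usually lie in open chromatin, which ATAC-seq detects as DNA accessible to a transposase.

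All 10 telencephalon identity genes were measured, at 10.2 to 1010 CPM, a count adjusted for library size, on average over the 4 RNA libraries, which held 17059330 to 18485639 counts. Of 12 genes of other embryonic tissues, 11 averaged under 1 CPM. The 9 microglia genes summed to 144 and 150 CPM in E16.5 libraries, against 69.5 and 69.7 CPM in E13.5 libraries. The 11 genes of endothelial cells and pericytes summed to 551 and 588 CPM at E16.5, against 173 and 183 CPM at E13.5, and the 9 erythroid genes to 2610 and 3530 CPM at E16.5, against 1910 and 1930 CPM at E13.5. None of these 3 lists had a gene at 0 in any library. The libraries are of bulk tissue, in which fewer cells of a type and less RNA per cell cannot be told apart.

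Few H3K18la-alone regions reached a listed start site, and the DNA of those start sites is shown first. Starts came from a RefSeq table (GRCm38.p6), and 3900 regions lay on chromosomes in it. Of these, 69 overlapped the window from 250 bases before to 50 bases after a listed start, at 69 genes with 80 windows. The table is incomplete, with windows of 17274 protein-coding genes against 21631 with a position, so the 69 regions are a lower limit. Of the 69 genes, 63 were long noncoding RNA genes and 6 were protein-coding. The windows of 4 protein-coding genes follow, 5′ to 3′ on the strand of the gene, with each CpG dinucleotide in capitals, and the last sequence is the start of Tle3, which lay in a region marked by all 12 lists and was the gene nearest to the most H3K18la-alone regions.

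Sv2b: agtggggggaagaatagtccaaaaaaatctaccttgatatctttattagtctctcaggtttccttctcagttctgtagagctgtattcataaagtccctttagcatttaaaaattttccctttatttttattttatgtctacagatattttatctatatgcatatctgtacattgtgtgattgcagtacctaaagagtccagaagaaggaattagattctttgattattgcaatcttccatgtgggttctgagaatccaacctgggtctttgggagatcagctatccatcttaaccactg
S100a4: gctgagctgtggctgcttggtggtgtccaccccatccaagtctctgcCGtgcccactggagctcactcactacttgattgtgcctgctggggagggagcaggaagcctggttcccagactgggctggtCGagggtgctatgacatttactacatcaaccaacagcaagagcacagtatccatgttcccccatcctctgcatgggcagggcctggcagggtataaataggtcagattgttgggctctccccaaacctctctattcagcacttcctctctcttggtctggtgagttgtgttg
Tmem270: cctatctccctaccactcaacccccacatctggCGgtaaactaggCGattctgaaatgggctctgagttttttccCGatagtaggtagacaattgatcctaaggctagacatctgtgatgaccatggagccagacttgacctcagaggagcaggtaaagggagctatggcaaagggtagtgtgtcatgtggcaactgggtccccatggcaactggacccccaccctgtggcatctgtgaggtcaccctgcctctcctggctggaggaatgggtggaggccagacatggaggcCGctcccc
Il31ra: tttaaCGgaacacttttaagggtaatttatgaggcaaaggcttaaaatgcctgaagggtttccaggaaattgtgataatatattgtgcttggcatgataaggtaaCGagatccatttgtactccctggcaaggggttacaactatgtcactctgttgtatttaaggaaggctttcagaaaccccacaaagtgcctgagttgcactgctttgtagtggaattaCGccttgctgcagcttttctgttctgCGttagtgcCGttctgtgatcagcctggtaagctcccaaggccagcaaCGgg
Tle3: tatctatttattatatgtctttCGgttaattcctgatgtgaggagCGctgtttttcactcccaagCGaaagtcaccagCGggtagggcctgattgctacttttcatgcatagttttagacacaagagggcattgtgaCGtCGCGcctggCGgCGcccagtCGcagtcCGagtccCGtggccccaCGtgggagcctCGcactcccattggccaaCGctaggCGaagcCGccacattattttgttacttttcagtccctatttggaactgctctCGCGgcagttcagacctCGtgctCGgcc

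The windows lie at chr7:75219970-75220269 (minus strand) for Sv2b, chr3:90603520-90603819 (plus) for S100a4, chr5:134906684-134906983 (minus) for Tmem270, chr13:112580613-112580912 (minus) for Il31ra and chr9:61372116-61372415 (plus) for Tle3. The Sv2b window holds 0 CpG, S100a4 holds 2, Tmem270 holds 4 and Il31ra holds 6, whereas the Tle3 window holds 21. The ratio of observed to expected CpG, which corrects the CpG count for the base composition, had a median of 0.195 over the 80 windows at H3K18la-alone regions (quartiles 0.131 and 0.296). It was 0.769 over the 11670 windows inside regions marked by all 12 lists and 0.387 over all 32619 windows. Median GC content was 49.0%, against 61.7% in the regions marked by all 12 lists and 53.0% over all windows. A ratio under 0.6 was found in 78 of 80 windows (97.5%), in 27.3% of those in regions marked by all 12 lists and in 84.3% of the 20869 windows in neither set. No CpG at all was found in 7 of 80 windows (8.75%), against 8.17% of the windows in neither set. Gene type moved with these values, since 63 of the 69 genes were long noncoding RNA genes whereas 8045 of the 9765 genes with a window in regions marked by all 12 lists were protein-coding, and its part was not tested. The quartile range at H3K18la-alone regions lay below that of windows in regions marked by all 12 lists (0.575 to 0.915).

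Motif letters were counted in the same windows on both strands. The box GGGCGG of Sp and Klf factors, which itself contains a CpG, was in 6.25% of the windows at H3K18la-alone regions, against 64.1% in regions marked by all 12 lists and 35.9% of all windows. The Ets core CCGGAA was in 1.25%, against 26.4% and 15%. Letters without a CpG ran the other way. The E-box CAGATG of proneural bHLH factors was in 25%, against 11.5% and 17.1%, and the homeobox core TAATTA in 13.8%, against 2.45% and 5.25%. TAATTA lies within the longer CTAATTA that was also counted. All windows include those in regions marked by all 12 lists, and motif shares of the windows in neither set were not computed. These are counts of letters in 80 windows and describe no binding.

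Few of the genes at these starts that could be matched had measurable RNA. Of the 69 genes, 28 were matched by name to a row in the RNA table, and the RNA of the others is unknown. Of the 28, 24 averaged under 0.1 CPM and 1 reached 1 CPM. Among all protein-coding genes with a row, 62.4% reached 1 CPM. Most genes at these starts are long noncoding RNA genes, for which this share was not computed, so the low count is not read as a trait of these starts. The gene that reached 1 CPM was Sv2b, which encodes a synaptic vesicle glycoprotein and whose window is a start listed inside the gene. Sv2b had 18.8 and 17.6 CPM in E16.5 libraries, against 10.3 and 9.81 CPM in E13.5 libraries (log2 change 0.86, edgeR adjusted p = 0.000403). The region at this start had H3K18la fold enrichments of 4.60 and 6.89 at E16.5 and 4.58 and 4.91 at E13.5, and no ATAC-seq peak. S100a4, a calcium-binding protein, was at 0 and 0.0544 CPM in E16.5 libraries and at 0 and 0.0551 CPM in E13.5 libraries. Its region had fold enrichments of 4.98 and 6.89 at E16.5 and 9.54 and 8.27 at E13.5 and an ATAC-seq peak in both libraries. At S100a4 an H3K18la peak thus stood at the start of a gene with almost no RNA. Its fold enrichment was above the median of all H3K18la-alone regions (4.42 to 4.79) in each library, most clearly at E13.5. This is 1 gene, and the other starts were not compared in this way.

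H3K18la-alone regions were weaker and shorter than the constant H3K18la regions that carried both H3K9 acylations. Fold enrichment is the peak caller's height of the summit over its local background, and the highest peak of each region was taken. Its median over the 4043 regions was 4.42 and 4.59 in the E16.5 libraries and 4.79 and 4.68 in the E13.5 libraries. Over the 18161 constant H3K18la regions that also had a peak in all 8 H3K9 lists, called co-marked regions below, it was 7.93 and 8.82 at E16.5 and 8.25 and 9.02 at E13.5. The H3K18la-alone median was therefore 0.519 to 0.581 of the co-marked one in each library. Median length was 1271 bp (quartiles 852 and 1866), against 2393 bp for co-marked regions, and the H3K18la-alone regions covered 5.92 Mb in all.

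**Figure D1:**
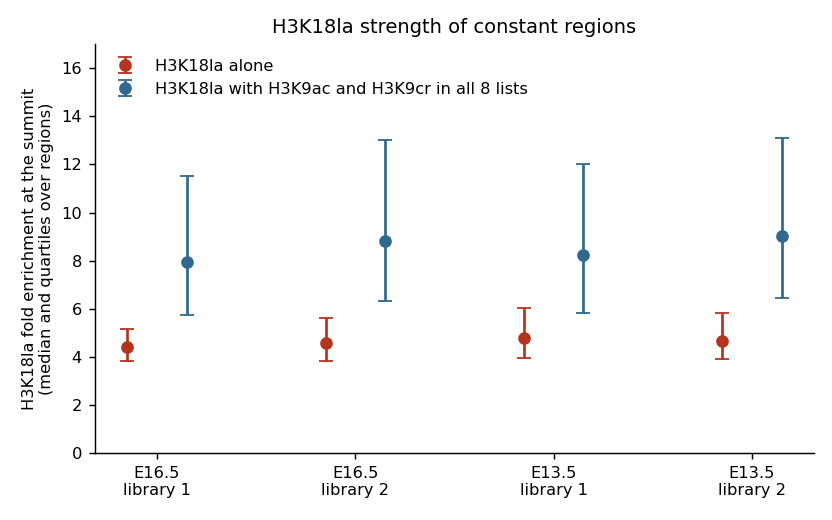
H3K18la fold enrichment at the summit (y axis, ratio to local background) in the 4 H3K18la libraries, with points for the median and bars for the quartiles over regions, for H3K18la-alone regions (left of each pair, n = 4043) and co-marked regions (right, n = 18161). The H3K18la-alone medians lie between 4.42 and 4.79, below the co-marked lower quartiles of 5.76 to 6.45.

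The rule cuts through a continuum. The least of the 4 H3K18la fold enrichments had a median of 3.66 over H3K18la-alone regions, against 3.44 over the 5576 regions just outside, which had a peak in 3 of 4 H3K18la lists and no H3K9 peak. On the other edge, 1600 regions had all 4 H3K18la peaks and a peak in 1 of 8 H3K9 lists, and that single H3K9 peak had a median fold enrichment of 3.93. In co-marked regions the strongest H3K9 peak had a median of 41.6. The 1600 regions owed their single peak most often to H3K9ac at E16.5, with 456 and 427 regions for its 2 libraries, and least often to H3K9cr at E13.5, with 20 and 5. Library 1 of H3K18la at E16.5, with the fewest H3K18la peaks, weighed most on the count, and 7087 regions met the rule without it. With H3K18la peaks kept at a -log10 q of at least 5, 1816 met it. H3K9 peaks were often close by. One lay within 2 kb of 19.3% of H3K18la-alone regions, within 10 kb of 51.4% and within 50 kb of 86.5%.

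The stages differed little in strength. The difference of the mean log2 fold enrichments, E16.5 minus E13.5, had a median of -0.07 over H3K18la-alone regions, with 10th and 90th percentiles of -0.64 and 0.44, and -0.03 over co-marked regions. Both E16.5 values lay above both E13.5 values in 751 regions (18.6%), beside 22.9% of all 33191 constant H3K18la regions. Both lay below in 1178 (29.1%), beside 27.5% of all constant regions. These libraries chose the regions, so the counts are a description. Across the 4043 regions, Spearman's rho of the fold enrichment was 0.36 between the E16.5 libraries, 0.53 between the E13.5 libraries and 0.16 to 0.20 between libraries of different stages. All 4 libraries share the threshold of the rule, which narrows the range of values. The summits of a region in 2 libraries lay a median of 108 to 144 bp apart, against 61 to 92 bp in co-marked regions.

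Open chromatin was uncommon at H3K18la-alone regions. ATAC-seq played no part in the choice of regions and was made at E13.5. An ATAC-seq peak of E13.5 overlapped 562 of 4043 regions in library 1 (13.9%, 95% Wilson interval 12.9% to 15%) and 634 in library 2 (15.7%, 14.6% to 16.8%). Co-marked regions had one in 67.1% and 68.6%, and all merged regions in 18.6% and 19.3%. The share was 14.8% ± 1.3 at H3K18la-alone regions and 67.9% ± 1.1 at co-marked regions (SD, n = 2 libraries). The gap is many times the spread between the 2 libraries, and with 2 libraries of 1 stage no test was made. The intervals cover counting error only, since neighbouring regions are not independent.

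The share rose in steps with the number of H3K9 lists that had a peak. Constant H3K18la regions with 1 of 8 H3K9 lists were open in 18.6% and 20.9%, those with 4 in 24.6% and 25.7%, and those with 7 in 32.5% and 37.3%. The step from 7 to 8 lists was the widest, to the 67.1% and 68.6% of co-marked regions. Regions with H3K18la in 3 of 4 lists and no H3K9 peak were open in 6.76% and 6.96%. Those with H3K18la in both libraries of 1 stage only and no H3K9 peak were open in 1.99% and 2.05% (E16.5 only, 3066 regions) and in 3.98% and 3.98% (E13.5 only, 5098 regions).

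**Figure D2:**
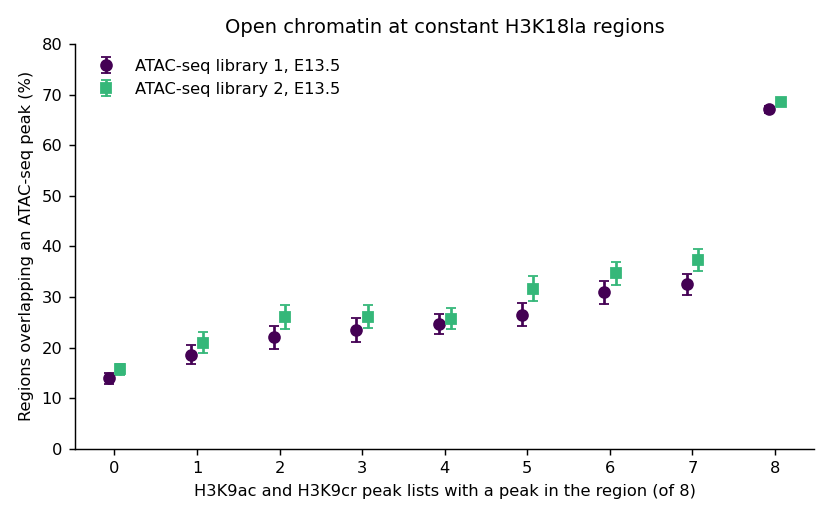
Share of constant H3K18la regions that overlap an ATAC-seq peak (y axis, %) by the number of H3K9ac and H3K9cr peak lists with a peak in the region (x axis, 0 to 8), for the 2 ATAC-seq libraries, with 95% Wilson intervals of counting error. Regions with 0 lists, the H3K18la-alone regions, are lowest at 13.9% and 15.7%, and regions with 8 lists are highest at 67.1% and 68.6%.

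Region length and peak strength moved with openness, and the gap was also seen at matched values of each taken alone. The sets also differed in position, with 2.05% of H3K18la-alone and 51.7% of co-marked regions within 2 kb of a protein-coding gene end. Openness was not compared at matched position, and the part of position was not tested. Among regions 2000 to 2999 bp long, 23.9% and 25% of H3K18la-alone regions and 71.7% and 73.6% of co-marked regions were open. Where the least H3K18la fold enrichment was 4 to 5, the shares were 19.4% and 20.7% against 62.7% and 62.5%. Where it was 2 to 3, they were 6.32% and 5.78% against 55.9% and 55.7%. Where it was 7 or more, 9 and 12 of 26 H3K18la-alone regions were open (34.6% and 46.2%), against 74.0% and 76.3% of co-marked regions. ATAC-seq peaks that did fall in H3K18la-alone regions had a median fold enrichment of 6.33 and 6.38, against 7.70 and 7.81 in co-marked regions. Within 250 bp of the H3K18la summit the shares were 9.23% and 9.55%, against 51.0% and 50.5%. When every histone list was cut to its strongest 28960 peaks, the length of the shortest list, 1002 regions met the rule and 34.2% of them were open.

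The regions lay far from the ends of genes. Within 2 kb of either end of a protein-coding gene stood 83 regions (2.05%), against 51.7% of co-marked regions. The share was 0.791% within 500 bp and 5.1% within 5000 bp. A further 1360 (33.6%) lay in a gene body and 2600 (64.3%) between protein-coding genes, against 25.5% and 22.8% of co-marked regions. Of the 2600 between protein-coding genes, 21.0% overlapped a noncoding gene. The median distance to a listed protein-coding start was 136 kb (quartiles 52.7 and 313), against 8.03 kb for co-marked regions, and 59.1% lay over 100 kb away, against 19.5%. Distances to starts are over the 3900 regions on chromosomes in the table of starts, and the 143 on chromosome 18 were not measured. The table also lacks starts on other chromosomes, and a distance is too long where the nearest start is missing. A region inside Sntg1 on chromosome 1, for example, was 9650 kb from the nearest listed start. The medians and the shares over 100 kb are therefore upper limits, and every set was measured against the same table. The constant H3K18la regions with 1 to 7 H3K9 lists lay between, with 4.13% at a gene end and a median of 89.4 kb to a start, and all merged regions had 15.6% and 69 kb.

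**Figure D3:**
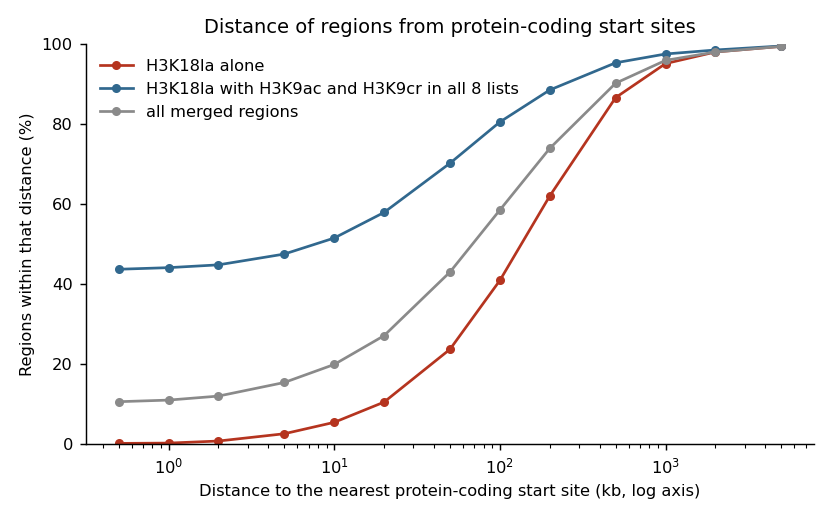
Cumulative share of regions (y axis, %) by distance to the nearest listed protein-coding start site (x axis, kb, log scale), for H3K18la-alone regions, co-marked regions and all merged regions. At 2 kb the curves stand at 0.769% for H3K18la-alone regions and 44.8% for co-marked regions, and at 100 kb at 40.9% and 80.5%. Starts missing from the table can make distances too long in every set.

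By chromosome, H3K18la-alone regions made up 10% to 15% of the constant H3K18la regions on the 19 autosomes and 4.81% on the X chromosome (26 of 540). They lay apart or in short runs. With gaps of up to 50 kb allowed, 2330 regions stood alone, and 38 runs had 5 or more, with 244 regions together.

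The longest run, 18 regions over 237 kb at chr9:61036393-61273648, lay between Uaca and Tle3, and none of the 18 overlapped an ATAC-seq peak of either library. Their median fold enrichments were 4.96 and 4.78 at E16.5 and 4.06 and 4.20 at E13.5. Tle3 (ENSMUSG00000032280.16, chr9:61372326-61418497), a corepressor of the Groucho family, was the nearest gene of 20 regions spread over 477 kb on both sides, from 8.41 to 225 kb away, more than any other protein-coding gene. Tle3 fell to 212 and 207 CPM in E16.5 libraries, against 307 and 301 CPM in E13.5 libraries (log2 change -0.54, edgeR adjusted p = 3.38e-05). The 16 regions of the next run, at chr5:112018532-112160087, lay between Mn1 and the crystallin gene Cryba4. Cryba4 is nearest to 17 regions and averaged 0.329 CPM at E16.5 and 0.250 CPM at E13.5. Mn1, a transcriptional coregulator nearest to another 10, had 397 and 392 CPM at E16.5, against 444 and 435 CPM at E13.5 (log2 change -0.16, adjusted p = 0.00936), a call lost with upper-quartile scaling (adjusted p = 0.189) and without E13.5 replicate 1 (adjusted p = 0.058). These genes were picked after their counts of nearest regions were seen.

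**Figure D4:**
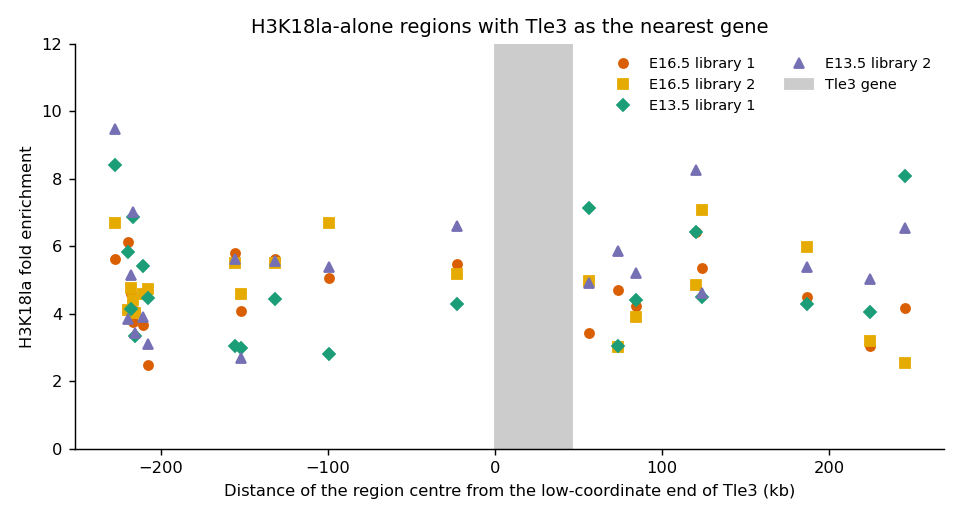
H3K18la fold enrichment (y axis) of the 20 H3K18la-alone regions with Tle3 as the nearest gene, in each of the 4 H3K18la libraries, by distance of the region centre from the low-coordinate end of Tle3 (x axis, kb), with the gene as a grey band. The regions flank the gene on both sides and none lies inside it.

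Other genes with many regions around them include neuronal receptors and regulators of transcription. Plxna2, a semaphorin receptor, was nearest to 13 regions and had 808 and 803 CPM at E16.5, against 825 and 782 CPM at E13.5, without passing the test (adjusted p = 0.922), which it passed with upper-quartile scaling (log2 change 0.10, adjusted p = 0.0491). Grik3, a kainate receptor subunit, was nearest to 14 and had 275 and 296 CPM at E16.5, against 295 and 286 CPM at E13.5 (adjusted p = 0.728). Id4, an inhibitor of bHLH factors in progenitors, had 10 regions between 213 and 400 kb away and fell to 107 and 101 CPM at E16.5, against 189 and 192 CPM at E13.5 (log2 change -0.87, adjusted p = 6.38e-06). Tenm2, with 14, and Ntm, with 13, are described below and rose, so genes at the head of this count moved in both directions. Co-marked regions also had these genes as the nearest, with 4 for Plxna2, 6 for Grik3, 14 for Id4, 7 for Tenm2 and 5 for Ntm. For Tle3 there were 9, for Cryba4 17 and for Mn1 21, so such surroundings are not particular to H3K18la-alone regions. Distance alone assigns a region to a gene here.

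The strongest H3K18la-alone regions, ranked by the least of their 4 fold enrichments, were of mixed surroundings. The first, at chr13:94315190-94319052, had 10.5 and 10.9 at E16.5 and 11.4 and 11.5 at E13.5 and no ATAC-seq peak. It lay 29.4 kb from Scamp1, a carrier membrane protein, which rose to 148 and 146 CPM at E16.5, against 89.6 and 87.3 CPM at E13.5 (log2 change 0.73, edgeR adjusted p = 1.02e-05). The second, at chr7:129986512-129988811, had 9.92 and 9.77 at E16.5 and 11.5 and 10.3 at E13.5, 174 kb from the fibroblast growth factor receptor gene Fgfr2 (log2 change -0.32, adjusted p = 0.00102). The third, at chr10:80955590-80956374, lay inside Gng7, a G protein subunit, with 12 and 12.2 at E16.5 and 11.0 and 9.52 at E13.5. Gng7 rose to 49.5 and 57.5 CPM at E16.5, against 28.2 and 25.3 CPM at E13.5 (log2 change 1.0, adjusted p = 5.79e-05).

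Among the strongest regions, those nearest to Asap1, Chodl and Immp2l overlapped an ATAC-seq peak in both libraries and the one nearest to Castor2 in 1. The region nearest to Asap1, chr15:64401158-64404751, had 9.97 and 11.9 at E16.5 and 12.5 and 9.09 at E13.5, and the one nearest to Chodl, chr16:78826716-78828712, had 8.69 and 9.18 at E16.5 and 9.57 and 8.25 at E13.5. Ins2, the insulin gene nearest to another of them, was at 0 CPM in every library. At the low end, a region at chr16:35551295-35552290 inside Sema5b had 4.16 and 4.69 at E16.5 and 2.0 and 3.84 at E13.5.

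Genes that held H3K18la-alone regions were long and were more often higher at E16.5. A region lay in the body or within 2 kb of an end of 865 protein-coding genes, of which 276 held 2 or more. Of these 865 genes, 861 had a row in the RNA table and 727 passed the filter on low counts. At E16.5, 392 of the 727 (53.9%) rose, beside 28.4% of all 16237 genes tested, and 131 (18%) fell, beside 29.2% of all (edgeR quasi-likelihood test, adjusted p under 0.05 over all genes). Their median log2 change was 0.44, against 0.01 over all genes tested and -0.06 over the 10728 tested genes with a co-marked region. Among genes with a co-marked region, 28.4% rose and 35.7% fell. These gene sets overlap, since 75.5% of the 865 genes also held a co-marked region.

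Rises of over 2-fold numbered 211 (29% of the 727), beside 12.7% of all genes tested, and falls of that size 33 (4.54%), beside 4.24%. Genes that are low at E13.5 may pass the filter through E16.5 alone, so the same counts were made without the filter. Then 389 of 829 genes (46.9%) rose, beside 16.8% of all 26550 genes, and 137 (16.5%) fell, beside 18.7%. With DESeq2, 43.2% rose, beside 19.1% of all genes with an adjusted p, and 13.7% fell, beside 21.6%. By distance alone, 43.1% of the 1637 tested genes nearest to a region rose and 26.3% fell.

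Gene length moved with both counts. Median length was 184 kb for genes with an H3K18la-alone region, 26.5 kb for genes with a co-marked region and 17.3 kb for all protein-coding genes. Among genes of 500 kb or more, 66.2% of the 142 tested with a region rose, against 68.1% of the 69 without one. Among genes of 200 to 500 kb, 54.1% rose with a region and 47.9% without. For 100 to 200 kb the shares were 46.2% and 38.6%, for 50 to 100 kb they were 58.6% of 87 and 31.8% of 1959, and below 50 kb they were 43.2% of 81 and 26.1% of 9559. Falls also depended on length. They were less frequent with a region than without below 50 kb (17.3% and 34.6%), at 50 to 100 kb (11.5% and 33%) and at 100 to 200 kb (20.5% and 28.1%). They were more frequent with a region at 200 to 500 kb (19.9% and 17.2%) and at 500 kb or more (16.2% and 10.1%). The gap in rises was widest at 50 to 100 kb and was not seen at 500 kb or more. The lower share of falls was not seen in genes of 200 kb or more. No test of these differences was made.

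The H3K18la stage difference of the regions was alike in genes whose RNA rose and genes whose RNA fell. The median log2 difference in H3K18la fold enrichment, E16.5 minus E13.5, was -0.07 for the 392 genes that rose, -0.07 for the 131 that fell and -0.09 for the 204 others. It was above 0 in 40.3%, 41.2% and 39.7% of the genes of these 3 sets.

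The 10 genes with the most regions were Lrmda with 12, Ntm with 11, Asic2 with 10, Iqschfp, Macrod2 and Megf11 with 9 each, Alk, Ptprm and Schip1 with 8 each, and Dab1, 1 of several with 7. Iqschfp is a readthrough gene that spans Schip1, so these share regions and their RNA counts are uncertain. Of the 10, 5 rose, 4 did not pass the test and Lrmda was too low to be tested, with 0.112 and 0.109 CPM at E16.5 and 0 in both E13.5 libraries. Ntm (ENSMUSG00000059974.10, chr9:28994749-29963269), an adhesion protein of the IgLON family on neurons, rose to 95.7 and 100 CPM at E16.5, against 26.5 and 34.2 CPM at E13.5 (log2 change 1.69, edgeR adjusted p = 6.38e-06). Its strongest region, chr9:29075500-29077569, had fold enrichments of 10.4 and 10.2 at E16.5 and 9.01 and 7.23 at E13.5, and 1 of the 11 regions overlapped an ATAC-seq peak.

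Asic2, an acid-sensing ion channel, rose to 22.7 and 24.4 CPM at E16.5, against 7.14 and 8.21 CPM at E13.5 (log2 change 1.62). Ptprm, a receptor tyrosine phosphatase with adhesive ectodomain, rose by 1.63 on the log2 scale, Alk, a receptor tyrosine kinase, by 1.14, and Macrod2, an ADP-ribose hydrolase, by 0.63. Dab1, the adaptor of the reelin pathway, had 163 and 161 CPM at E16.5, against 152 and 139 CPM at E13.5 (adjusted p = 0.0505). It passed the test with the replicate block (adjusted p = 0.0281), with RLE size factors (0.0489), with upper-quartile scaling (0.00714) and without E13.5 replicate 1 (0.047). Megf11 had 22.8 and 22.3 CPM at E16.5, against 18.1 and 19.8 CPM at E13.5 (adjusted p = 0.0631), and it passed with upper-quartile scaling (adjusted p = 0.0198).

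**Figure D5:**
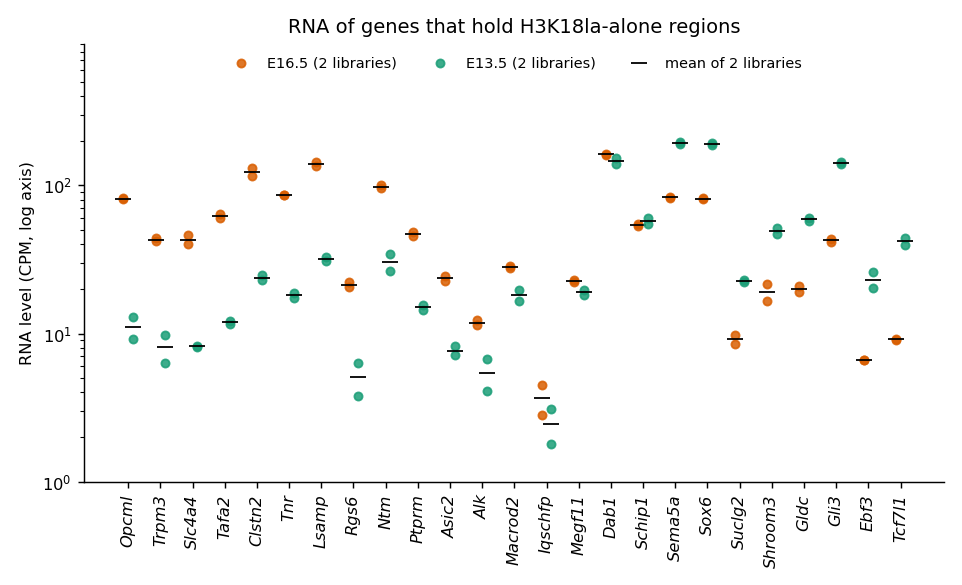
RNA level (y axis, CPM, log scale) in each of the 2 E16.5 libraries (left of each pair) and 2 E13.5 libraries (right) for the genes with the most H3K18la-alone regions and for the 8 largest rises and falls among genes with 2 or more, in order of log2 change, with a dash for the mean. CPM are not scaled to gene length, so levels compare within a gene, and Lrmda, too low to be tested, is not drawn. From left to right the E16.5 points pass from above the E13.5 points to below them, from a log2 change of 2.89 for Opcml to -2.20 for Tcf7l1, and the rule that named the largest rises and falls took only genes without overlap between stages.

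Among genes with 2 or more regions and an average of at least 10 CPM, the largest rise was that of Opcml (ENSMUSG00000062257.13), an IgLON protein like Ntm. Opcml had 81.0 and 81.8 CPM at E16.5, against 12.9 and 9.20 CPM at E13.5 (log2 change 2.89, edgeR adjusted p = 1.34e-06). Lsamp, of the same family, rose to 136 and 144 CPM at E16.5, against 32.8 and 30.7 CPM at E13.5 (log2 change 2.14). The extracellular matrix protein tenascin-R (Tnr, 6 regions) rose to 85.6 and 85.6 CPM at E16.5, against 18.8 and 17.5 CPM at E13.5 (log2 change 2.24). Clstn2, a synaptic calsyntenin, rose by 2.37, the cation channel Trpm3 by 2.41, the bicarbonate cotransporter Slc4a4 by 2.39, the secreted protein Tafa2 by 2.38 and the G protein regulator Rgs6 by 2.08 on the log2 scale.

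The largest fall in the same set was that of Tcf7l1 (ENSMUSG00000055799.13), a repressor of Wnt targets. It fell to 9.21 and 9.03 CPM at E16.5, against 44.0 and 39.6 CPM at E13.5 (log2 change -2.20, edgeR adjusted p = 1.83e-06). Ebf3, which held 7 regions, fell to 6.58 and 6.64 CPM at E16.5, against 20.3 and 25.9 CPM at E13.5 (log2 change -1.81), and none of its regions overlapped an ATAC-seq peak. Gli3, a mediator of hedgehog signalling, fell to 43.7 and 41.7 CPM at E16.5, against 140 and 143 CPM at E13.5 (log2 change -1.73). The log2 changes of the other 5 genes were -1.22 for the transcription factor Sox6, -1.56 for the glycine cleavage enzyme Gldc, -1.36 for the actin regulator Shroom3, -1.30 for the succinyl-CoA ligase subunit Suclg2 and -1.21 for the semaphorin Sema5a.

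Over all 21631 protein-coding genes, 4% held an H3K18la-alone region, and the share went with gene length: 0.833% of genes under 50 kb, 34.2% of genes of 200 to 500 kb and 65.2% of longer genes. The counts by gene group below are to be read against these shares. Their rises and falls stand beside 28.4% and 29.2% of all genes tested. Among genes of 500 kb or more, 66.2% of those with a region and 68.1% of those without rose. The groups of cell adhesion and axon guidance, which held 45 and 38 regions, have median gene lengths of 393 and 326 kb. Of 23 cell adhesion genes, 11 held an H3K18la-alone region. In that group 20 genes rose and 2 fell. The median log2 change of the group was 0.96, beside 0.01 over all genes tested. Cdh13, a cadherin with 6 regions, rose to 106 and 116 CPM at E16.5, against 60.2 and 50.1 CPM at E13.5 (log2 change 1.01, edgeR adjusted p = 3.78e-05). Of 24 synaptic adhesion and scaffold genes, with a median length of 594 kb, 10 held a region and 21 rose, with 1 fall. Tenm2, a teneurin, held 6 regions and rose to 207 and 216 CPM at E16.5, against 64.2 and 63.2 CPM at E13.5 (log2 change 1.73). Its strongest region, chr11:36072203-36073238, had fold enrichments of 10.7 and 13.4 at E16.5 and 12.5 and 7.14 at E13.5. Tenm3, with 5 regions, rose by 0.73 on the log2 scale, and Tenm4, with 5, had 372 and 351 CPM at E16.5 and 385 and 333 CPM at E13.5 without passing the test.

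Of 23 axon guidance genes, 14 held a region, 13 rose and 6 fell. Robo2, a Slit receptor with 7 regions, rose to 409 and 405 CPM at E16.5, against 253 and 245 CPM at E13.5 (log2 change 0.71, edgeR adjusted p = 5.92e-06). The ligand gene Slit3, also with 7, rose to 13.7 and 13.7 CPM at E16.5, against 6.60 and 6.89 CPM at E13.5 (log2 change 1.02). Of 20 ion channel and receptor genes, 18 rose and none fell, but 2 held a region, Kcnd2 and Kcnma1 with 1 each. Kcnma1, a calcium-activated potassium channel, rose by 1.90 and the potassium channel Kcnd2 by 1.48 on the log2 scale. The median gene length of this group was 418 kb. Of all protein-coding genes of 200 to 500 kb, 34.2% held a region, and 54.1% of those tested with a region and 47.9% without one rose. The difference of the group from these shares was not tested.

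Of 21 neuronal transcription factor genes, with a median length of 181 kb, 6 held a region, 10 rose and 8 fell. Sox5, with 4 regions, fell to 104 and 115 CPM at E16.5, against 237 and 219 CPM at E13.5 (log2 change -1.06), and Nfia, with 2, fell by 0.96 on the log2 scale. Of 15 genes of inhibitory neurons and ventral telencephalon, Ebf1 held 1 region, with 64.8 and 60.9 CPM at E16.5 and 54.8 and 58.8 CPM at E13.5 (adjusted p = 0.0853 in edgeR, and 0.0133 with upper-quartile scaling), while 5 genes of the group rose and 6 fell. Of 16 radial glia and progenitor genes, Gli3 held 2 regions and the glutamate transporter gene Slc1a3 held 1, while 3 genes rose and 12 fell. Slc1a3 rose to 302 and 264 CPM at E16.5, against 103 and 111 CPM at E13.5 (log2 change 1.40). Of 15 astrocyte and oligodendrocyte genes, the matrix gene Tnc held 1 region and rose by 2.98 on the log2 scale, and 12 of 14 tested genes rose and 1 fell.

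None of the 10 telencephalon identity, 12 intermediate progenitor and newborn neuron, 20 cell cycle, 25 acylation regulator, 24 glycolysis and lactate or 16 housekeeping genes held an H3K18la-alone region. Median gene lengths of these groups were 4.32 to 27.6 kb, so 0 of 107 genes stands beside the 0.833% of all genes under 50 kb, and nothing particular to these groups is read from it. The same 6 groups held 10, 13, 26, 31, 27 and 19 co-marked regions in or at their genes. In these groups 9, 11, 20, 14, 12 and 12 genes fell and 0, 0, 0, 1, 5 and 0 rose, in the same order.

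Genes of blood vessels and microglia, which are other cells in the tissue, held 3 regions. All 11 endothelial and pericyte genes rose and all 9 microglia genes rose. The region in the vascular growth factor receptor gene Flt1 had fold enrichments of 3.65 and 5.36 at E16.5 and 6.45 and 5.38 at E13.5, and Flt1 rose to 58.8 and 65.5 CPM at E16.5, against 10.9 and 12.5 CPM at E13.5 (log2 change 2.41, edgeR adjusted p = 1.09e-06). The region in the endothelial adhesion gene Pecam1 had 7.17 and 5.25 at E16.5 and 5.16 and 7.25 at E13.5, and Pecam1 rose by 1.11 on the log2 scale. The region at the complement gene C1qa had 6.65 and 8.42 at E16.5 and 11.2 and 7.74 at E13.5, and C1qa rose to 11.4 and 10.7 CPM at E16.5, against 6.48 and 4.30 CPM at E13.5 (log2 change 1.04). No erythroid gene and no gene of other embryonic tissues held a region. The part of these cells in the H3K18la-alone regions was not tested.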

How the data were processed

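Peak lists of 12 histone ChIP-seq and 2 ATAC-seq libraries and the RNA counts of 4 libraries were used. Input libraries were not analysed here. The submitters' processing notes name Bowtie2 2.4.1, GRCm38 and MACS2 2.2.7.1 for the authors' lists. According to the headers, each deposited peak has a pileup signal, a -log10 p-value, a -log10 q-value and a fold enrichment, which is a ratio over the caller's local background. The sources used here do not state the caller's control, duplicate handling or read depth. The deposited expected counts are unscaled and came from Salmon 1.1.0, per the submitters' processing notes.

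Peaks were merged in Python 3.11.15 and checked with bedtools 2.31.1, which gave the same 112550 regions. Gene positions (21631 protein-coding genes) and promoter windows came from RefSeq tables of GRCm38.p6. Without a genome, planned sequence measures were made on promoter windows alone. Wilson intervals are at 95%. After rounding, expected counts entered edgeR 4.0.16 under R 4.3.3 (TMM, filterByExpr, quasi-likelihood F test, E16.5 minus E13.5, 2 residual degrees of freedom, Benjamini-Hochberg over 16237 genes). DESeq2 1.42.0 was an alternative.

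Genes were named by rule: the 10 strongest regions with their gene, the 10 genes with the most regions, the 8 largest rises and falls among genes with 2 or more regions, at least 10 CPM and no overlap between stages, and up to 2 genes per list with the most regions. Of the 10 strongest regions, 1 is not reported here. Regions, lists and rules were chosen with earlier results of these data known.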

Additional observations from a re-analysis of the deposited data

How the results depend on the processing

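Counts of regions, shares of open regions and shares near gene ends followed the choice of peaks, and the cause was not tested beyond what each change does by construction. With H3K18la peaks kept at a -log10 q of at least 5, 1816 regions met the rule and 19.9% were open (mean of 2 ATAC-seq libraries). With 28960 peaks per list, 1002 met it, 34.2% were open and 2.99% lay at a gene end. Merging across 500 bp gave 19.5% open. Leaving out regions with an H3K9 peak within 2000 bp gave 16.2% open and 1.59% at a gene end. Counting an ATAC-seq peak as inside only by its summit gave 10.8%, and a window of 250 bp on each side of the H3K18la summit, chosen after seeing the data, gave 9.39%. A gene end distance of 500 bp gave 0.791% and one of 5000 bp gave 5.10%. Leaving out 1 histone library at a time gave 4048 to 7087 regions, with the most without E16.5 H3K18la library 1, and 11.5% to 15.3% open. By -log10 q in place of fold enrichment, the E16.5 to E13.5 ratio of H3K18la medians was 0.896, against 0.952. Every alternative kept the share of open regions below the 67.1% of co-marked regions in the main setting. The share did not stay below the 18.6% and 19.3% of all merged regions in the main setting. It was above both with the -log10 q of at least 5 (19.9%), with merging across 500 bp (19.5%) and with 28960 peaks per list (34.2%). Shares of the comparison sets under the same alternatives are not given here.

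The share of genes with a region that rose stayed above that of all genes in every alternative, from 43.1% to 57.9%, and the share that fell stayed below it, from 13.7% to 26.3%. DESeq2 called 3395 rises and 3854 falls over all genes, against 4605 and 4740. With the replicate block, 55.2% rose and 18.3% fell. Same-numbered libraries had deviations correlated at 0.125, and with 2 numbers this does not show that they are paired. Leaving out 1 RNA library at a time gave 47.1% to 49.5% rises and 15.2% to 15.7% falls, where the lone library of a stage was assumed to vary like the other stage. Of the 59 named genes that were tested, 51 passed, none changed direction while called, and calls were lost under some setting for Chodl, Zfp608 and Mn1. Peak lists give no read depth, so weak H3K9 signal under the threshold was not detectable here.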
